A study of Mus musculus with 9 samples.

Results

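The Wnt genes of the mouse heart were followed across 9 RNA sequencing libraries, 3 of CK, 3 of DCM and 3 of SPM mice. They comprise the secreted Wnt ligands, the frizzled (Fzd) receptors with the co-receptors Lrp5 and Lrp6, the secreted antagonists of the Sfrp, Dkk, Frzb and Wif1 kind, and Axin2. Genes were taken by symbol: Wnt, Fzd, Sfrp or Dkk followed by a number and at most 1 letter, or Frzb, Wif1, Lrp5, Lrp6 or Axin2. This gave 38 of the 22851 genes in the count matrix, of which 16 were ligands, 12 receptors, 9 antagonists and 1 the feedback gene Axin2. In the gene annotation, 42 symbols met the same rule, and Dkk4, Wnt10a, Wnt3a and Wnt8a were not analysed here.

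All mice were male C57BL/6J, aged 6 to 8 weeks at the start. CK (control check) mice received citrate buffer alone. DCM (diabetic cardiomyopathy) mice were given 1 injection of streptozotocin at 180 mg/kg, which destroys the insulin-producing beta cells, and were examined 12 weeks later. SPM mice received the same streptozotocin and, in addition, the polyamine spermine at 1 mg/kg, daily for 2 weeks before it and on alternate days for 12 weeks after it. No group received spermine without streptozotocin. The methods speak both of 3 mice per group and of pooled hearts, so p-values below measure the spread between libraries, whichever these are. The tissue label and the paper name the heart, whereas the extraction protocol names the retina. Cardiomyocyte markers, 7 of 9 present in the matrix, summed to 15639 to 19027 FPKM in every library, and retinal markers, 7 of 11 present, to 0.125 to 0.447.

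Wnt ligands are lipid-modified secreted proteins that bind frizzled receptors. With the co-receptors Lrp5 or Lrp6 they stabilise beta-catenin, which enters the nucleus and activates genes including Axin2, itself part of the complex that degrades beta-catenin. Other ligands, among them Wnt5a, Wnt5b and Wnt11, are best known for signalling without beta-catenin, through planar cell polarity and calcium. Sfrp proteins, Frzb and Wif1 bind the ligand outside the cell, whereas Dkk1 and Dkk2 bind the co-receptors. In the heart the pathway is known for its part in development and in the response to injury, and is little active in the healthy adult organ.

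Library totals lay between 29901300 and 39718680 counts. The mitochondrial share of a library lay between 13.7% and 16.2% for CK, between 15.5% and 18.9% for DCM, and at 21.1% or just below for SPM. The second SPM library lay between the other SPM libraries for 67.7% of 13392 genes, where the other 8 libraries did so within their own groups for 14.9% to 39.3%, and for 18 of the 27 members among them. These are the genes with a mean of at least 20 counts. A mixture of 45.0% of the first with the remainder from the third SPM library came within 0.896 times the counting noise of it. Mixtures of 2 libraries were fitted to each of the 9 libraries in turn. The next best of the 251 other combinations was a fit to the third SPM library, at 2.52 times. Why the second SPM library lay between the others was not tested. For the genes described below, SPM tests are therefore given with and without it. The SPM means and SDs below include that library. These SDs may be too small if it is not independent of the other SPM libraries. Fold changes also followed the GC content of the genes in SPM compared to DCM (Spearman's rho of -0.502 across 14484 genes, which are not independent replicates) and in SPM compared to CK (rho of -0.366 across 14564 genes), but little in DCM compared to CK (rho of 0.0602 across 14392 genes). The members tested had a median GC content of 52.8% to 52.9%, above the 49.7% to 49.8% of all genes tested, so values are also given with a GC correction where it ended a call or moved an adjusted p across 0.05.

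Levels between genes were compared per length, on the deposited FPKM values. Among the ligands, the mean over the 9 libraries was 4.82 FPKM for Wnt5b, 4.76 for Wnt11, 3.14 for Wnt9a and 1.83 for Wnt5a, and the other 12 stayed below 1, from 0.665 for Wnt9b down to 0.00228 for Wnt3. The libraries of Wnt5b and Wnt11 overlapped. Wnt3 had 2 counts in all 9 libraries together and Wnt1 had 5. Each of them lies beside a ligand gene with more counts: Wnt3 is 24.3 kb from Wnt9b on chromosome 11, with 896 counts, and Wnt1 is 11.7 kb from Wnt10b on chromosome 15, with 131.

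Of the receptors, Fzd4 led with 21.9 FPKM, followed by Lrp5 with 18.4, Lrp6 with 7.30 and Fzd1 with 4.71. Fzd7, Fzd8 and Fzd2 followed at 3.88, 3.07 and 2.74, Fzd5 stood at 1.02, and the 4 others were below 1. Lrp5 therefore stood above Lrp6, its close relative, and the libraries of both genes did not overlap. Among the antagonists Dkk3 stood highest at 34.0 FPKM, ahead of Sfrp1 at 9.21, Wif1 at 6.08, Sfrp2 at 5.17, Frzb at 3.83 and Sfrp5 at 3.54. Sfrp4, Dkk2 and Dkk1 were below 0.2, and Dkk1 had 2 counts in all. Dkk3 belongs to the Dkk family by sequence but is not known to bind the co-receptors as Dkk1 and Dkk2 do.

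**Figure D1:**
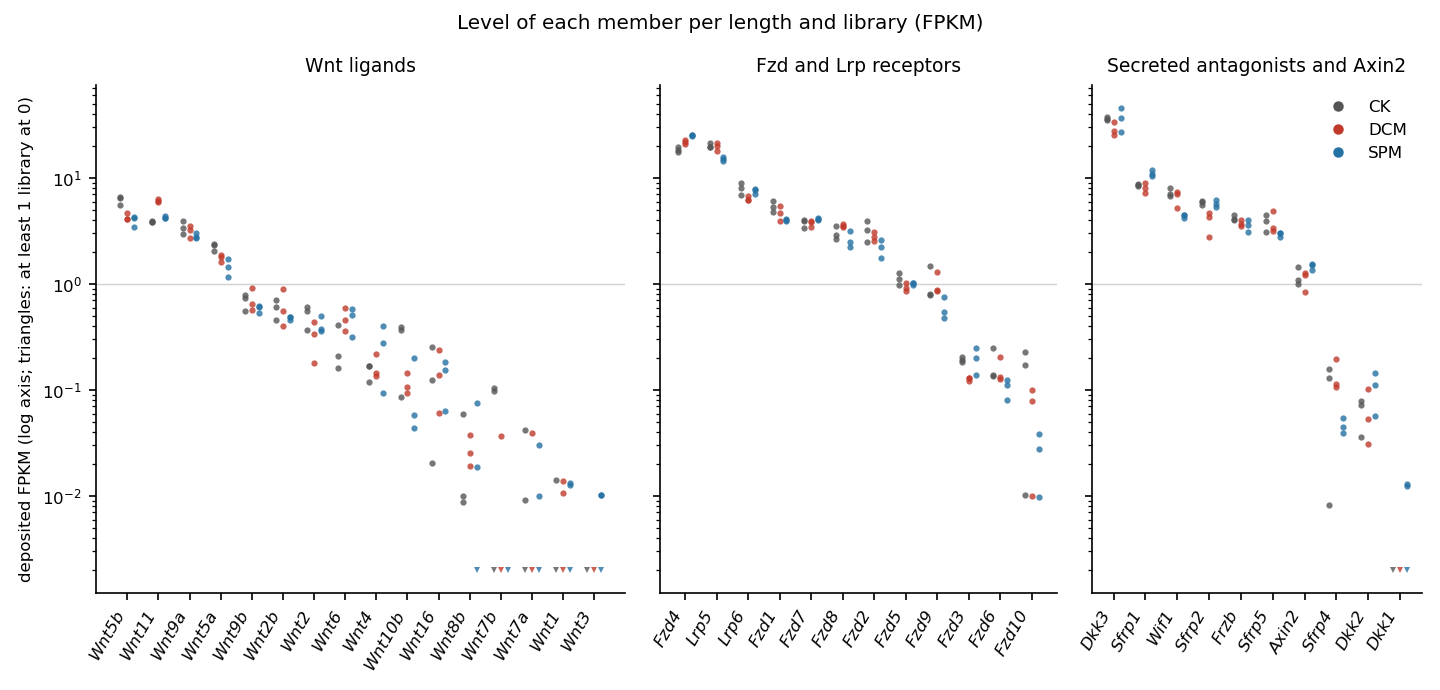
Deposited FPKM of the 38 genes in each library on a log axis, by role and ordered by mean level, with CK in grey, DCM in red and SPM in blue; triangles at the foot mark a group with at least 1 library at 0. A few genes hold most of each role, with Wnt5b and Wnt11 at 4.82 and 4.76 FPKM among the ligands, Fzd4 at 21.9 among the receptors and Dkk3 at 34.0 among the antagonists.

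Diabetes was compared with buffer in DCM compared to CK. A gene is called here when it passed both a Benjamini-Hochberg adjusted p of 0.05, over all genes tested by the quasi-likelihood test of edgeR, and a fold change of 1.5. Of 31 members with enough counts, 1 was called, the ligand Wnt11, beside 4.34% of all 14402 genes. With the adjusted p alone 3 of the 31 (9.68%) passed, beside 10.4% of all genes: Wnt11 and Fzd4 were higher, as 5.28% of all genes were, and Wnt5b was lower, as 5.11% were. Wnt11 was again called with the GC correction, beside 4.69% of all genes, and 4 members (12.9%) passed the adjusted p limit, beside 13.0%, with Fzd8 as the fourth. At an unadjusted p of 0.05 there were 8. The median log2 fold change of the members was -0.01, 15 being higher and 16 lower, against -0.00248 over all genes, of which 49.6% were higher. Of the 31, 7 (22.6%) had groups that did not overlap, beside 29.3% of all genes.

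Wnt11 (ENSMUSG00000015957) lies on the plus strand at chr7:98835112-98855195 (GRCm38) and encodes a ligand that acts in cardiac development, mostly without beta-catenin. As normalised CPM, which are counts scaled to the library total after TMM adjustment, it stood at 12.7, 12.9 and 12.9 in CK, at 20.9, 22.6 and 21.2 in DCM and at 15.5, 14.9 and 14.8 in SPM. The 3 groups did not overlap, with CK lowest, SPM between and DCM highest. The group means were 12.8 ± 0.0870, 21.6 ± 0.900 and 15.1 ± 0.376 CPM (SD, n = 3). Wnt11 rose 1.68-fold in DCM compared to CK (log2 fold change 0.75 ± 0.09 SE, edgeR adjusted p = 3.40e-04), and was called with any 1 of the 6 libraries left out, at log2 fold changes of 0.71 to 0.78. It was also called by DESeq2 and by limma on FPKM values.

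Between DCM and SPM, Wnt11 was 1.43-fold lower (log2 fold change -0.52 ± 0.08 SE, edgeR adjusted p = 0.00956), which is under the fold limit. Without the second SPM library the value was -0.50 with an edgeR adjusted p of 0.0566, and with the GC correction -0.38 with 0.0367. The GC content of its transcripts is 56.5%. With both it was -0.37 with 0.212. Against CK the log2 fold change in SPM was 0.23 ± 0.08 SE (edgeR adjusted p = 0.0566, and 0.187 without the second SPM library). With the GC correction it was 0.37 (edgeR adjusted p = 0.0119), and 0.0677 was the adjusted p without that library as well.

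A promoter of Wnt11 is shown because Wnt11 was called and this promoter holds the letters CTTTGAT or, on the other strand, ATCAAAG. These letters are the core of sites bound by the TCF/LEF partners of beta-catenin. RefSeq promoters on GRCm38.p6, which run from 250 bases before to 50 after the start site, were found for 27 of the 38 members, 30 promoters in all. The letters occur in 2 of these (6.67%), beside 3.73% of all 32851 promoters of the same length. They are 1 of the 2 promoters of Wnt11 and 1 of the 3 of Wnt5b. With 1 promoter taken for each of the 27 members, only that of Wnt11 held the letters (3.70%). In Wnt11, at chr7:98834862-98835161 on the plus strand, they stand in capitals 51 to 45 bases before the start site. The promoter of Wif1, at chr10:121033754-121034053 on the plus strand, is set beside it as that of the other called gene and does not hold the letters. A match in such a window is a description and not a site in use.
Wnt11: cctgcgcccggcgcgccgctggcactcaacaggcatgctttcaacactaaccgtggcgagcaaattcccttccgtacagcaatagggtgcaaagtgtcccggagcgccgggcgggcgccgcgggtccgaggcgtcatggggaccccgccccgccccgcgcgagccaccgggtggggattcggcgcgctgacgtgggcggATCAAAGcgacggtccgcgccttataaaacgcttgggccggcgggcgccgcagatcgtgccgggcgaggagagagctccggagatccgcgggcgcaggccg
Wif1: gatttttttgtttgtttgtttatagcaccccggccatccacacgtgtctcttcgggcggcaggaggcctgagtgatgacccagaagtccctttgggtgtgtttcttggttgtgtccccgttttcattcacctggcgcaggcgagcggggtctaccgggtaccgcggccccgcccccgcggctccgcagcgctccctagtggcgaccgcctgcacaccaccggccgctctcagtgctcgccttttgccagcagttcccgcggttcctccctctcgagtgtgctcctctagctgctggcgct

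Wnt5b, a ligand close in sequence to Wnt5a, stood at 14.7, 12.4 and 15.1 CPM in CK, at 11.0, 10.0 and 9.91 in DCM and at 8.50, 10.2 and 10.4 in SPM. All DCM and SPM libraries were below all CK libraries. It was lower in DCM compared to CK (log2 fold change -0.45 ± 0.12 SE, edgeR adjusted p = 0.032) without reaching the fold limit. Leaving out single libraries moved the adjusted p between 0.0348 and 0.109, and it stayed below 0.05 in 1 of the 6 cases, that without the second CK library. Between DCM and SPM its log2 fold change was -0.09 (edgeR adjusted p = 0.603, and 0.658 without the second SPM library), which turned to 0.10 with the GC correction (adjusted p = 0.602). Against CK the SPM difference was -0.54 ± 0.12 SE (edgeR adjusted p = 0.0111, and 0.041 without the second SPM library), which passed the fold limit when the second CK or the third SPM library was left out. After the GC correction it was -0.36 (edgeR adjusted p = 0.0477, and 0.112 without the second SPM library).

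Wnt5a stood at 15.6, 15.9 and 14.0 CPM in CK, at 13.2, 13.1 and 11.7 in DCM and at 8.34, 10.5 and 12.4 in SPM. The CK libraries were above all others, while DCM and SPM overlapped. The log2 fold change was -0.26 ± 0.11 SE in DCM compared to CK (edgeR adjusted p = 0.163) and -0.55 ± 0.14 SE in SPM compared to CK (edgeR adjusted p = 0.0219). The latter became 0.0773 without the second SPM library, 0.0584 without the first CK library and 0.0688 without the second. Wnt5a was called without the third CK or the third SPM library, and it was called with the GC correction (log2 fold change -0.62, edgeR adjusted p = 0.0158, and 0.0598 without the second SPM library). Wnt9a, at 12.4, 10.6 and 9.47 CPM in CK, 11.7, 9.41 and 11.1 in DCM and 9.36, 9.36 and 10.2 in SPM, overlapped between all groups, with log2 fold changes of -0.01, -0.16 and -0.17 in the 3 comparisons, none past the adjusted p limit (edgeR adjusted p of 0.983, 0.346 and 0.299, with 0.636 and 0.554 for the SPM comparisons without the second SPM library).

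The 7 other ligands tested in DCM compared to CK had log2 fold changes of -1.22 (Wnt10b) to 0.93 (Wnt6), with standard errors of 0.24 to 0.72, and none passed the adjusted p limit by edgeR. Wnt7b was not tested in the main fit: its counts were 0, 12 and 10 in CK, 5, 0 and 0 in DCM and 0 in all 3 SPM libraries. The first CK library and all SPM libraries thus shared a count of 0, which allows up to 3 counts in each and covers counting error only. It was called in SPM compared to CK by DESeq2, and by edgeR when that CK library was left out.

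Of 9 fibroblast markers, 8 were lower and 1 higher in DCM compared to CK, where Wnt5b was lower too. The group means of Col1a1, Col1a2 and Col3a1 were 40.4, 60.2 and 93.1 FPKM in CK, against 18.2, 32.2 and 30.0 in DCM. In SPM they were 16.1, 29.8 and 30.7. Those of Pdgfra and Dcn were 12.6 and 177 FPKM in CK, 12.2 and 162 in DCM, and 13.9 and 206 in SPM. Of 9 fibroblast markers tested, 6 passed the adjusted p limit and were lower in DCM compared to CK, 3 of them called, and their summed level was 493 to 513 FPKM in CK, against 329.7 to 356 in DCM and 383 to 399.5 in SPM. From DCM to SPM 3 of the 9 passed the limit and were higher, 0 of them without the second SPM library and 0 with the GC correction, while the mean of Wnt5a went from 12.7 to 10.4 CPM and that of Wnt5b from 10.3 to 9.69. The part of the markers in the differences of Wnt5a, Wnt5b, Sfrp2 and Wnt11 was not tested. In whole tissue, fewer cells of a type and less RNA per cell cannot be told apart. For Wnt11, all DCM libraries were above all CK libraries.

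Summed over the 16 ligands, the level was 18.5 ± 0.505 FPKM in CK, 18.0 ± 1.3 in DCM and 15.0 ± 1.09 in SPM (SD, n = 3). The CK and DCM sums overlapped and the SPM sums, at 13.9 to 16.1 FPKM, were below both, a difference that was given no test. The sums used FPKM without TMM adjustment or GC correction. In SPM compared to DCM the GC correction took the log2 fold change of Wnt5b from -0.09 to 0.10. Wnt9a went from -0.16 to -0.02, Wnt11 from -0.52 to -0.38 and, the other way, Wnt5a from -0.28 to -0.39. By limma on FPKM, the median over all genes in SPM compared to CK was -0.0829, against 0.00215 by edgeR. The part of either in the SPM sums was not tested. The make-up of the sum differed as well. Wnt11 held 20.3% to 21.3% of it in CK, as against 31.2% to 36.2% in DCM and 26.2% to 31.4% in SPM. For Wnt5b the shares were 30.1% to 36.5%, 23.4% to 24.0% and 25.1% to 27.8% in the same order. Wnt5b was thus the leading ligand in all CK libraries and Wnt11 in all DCM libraries, and in SPM the ranges of both overlapped.

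**Figure D2:**
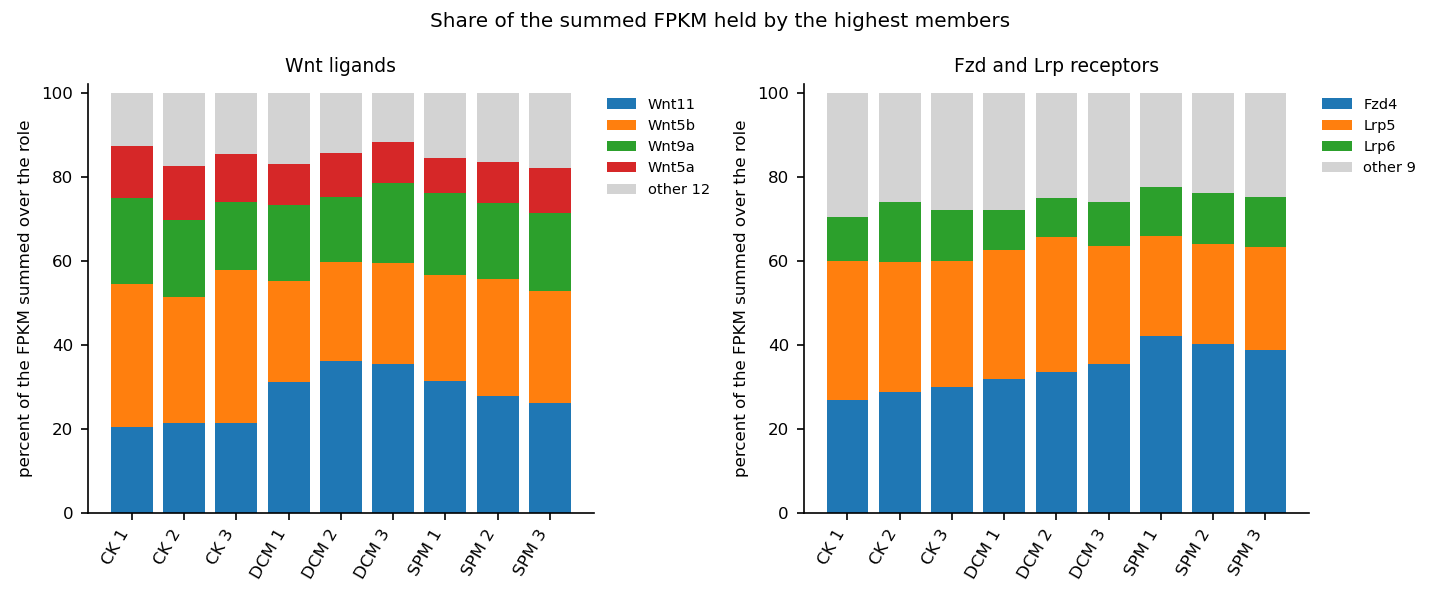
Share of the FPKM summed over the 16 ligands (left) and the 12 receptors (right) held by the highest genes, in percent, for each library. Wnt11 takes 20.3% to 21.3% of the ligand sum in CK and 31.2% to 36.2% in DCM, and Fzd4 takes 26.9% to 30.0% of the receptor sum in CK and 38.8% to 41.9% in SPM.

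Among the receptors Fzd4, which also serves as the receptor of the vascular ligand Norrin together with Lrp5, stood at 112, 116 and 129 CPM in CK, at 139, 153 and 157 in DCM and at 177, 173 and 174 in SPM. The groups did not overlap and were ordered CK, DCM, SPM. It was higher in DCM compared to CK (log2 fold change 0.33 ± 0.08 SE, edgeR adjusted p = 0.0186), with adjusted p values of 0.0148 to 0.0887 when single libraries were left out, below 0.05 in 2 of 6. From DCM to SPM the value was 0.22 ± 0.07 SE (edgeR adjusted p = 0.0507, and 0.186 without the second SPM library), and with the GC correction 0.12 (adjusted p = 0.291). From CK to SPM it was 0.55 ± 0.06 SE (edgeR adjusted p = 0.00126, and 0.00933 without the second SPM library), a 1.46-fold difference just under the fold limit, which it passed when the third CK library was left out.

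The sum of 8 endothelial markers was 559 to 658 FPKM in CK, against 510.3 to 571 in DCM and 470.4 to 522 in SPM. Of the 8, 3 were higher and 5 lower in DCM compared to CK, and 2 were higher and 6 lower in SPM compared to CK. Their part in the level of Fzd4 was not tested. Tspan12, a membrane protein that joins Fzd4 in the Norrin receptor, was lower in DCM compared to CK (log2 fold change -0.39 ± 0.10 SE, edgeR adjusted p = 0.026) and higher in SPM compared to DCM (0.40 ± 0.08 SE, edgeR adjusted p = 0.0162, and 0.0906 without the second SPM library). Both values moved with the GC correction, to -0.35 (edgeR adjusted p = 0.0621) and 0.07 (adjusted p = 0.737). It was chosen after its values were seen.

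Lrp5 stood at 183, 166 and 170.2 CPM in CK, at 177, 195 and 165 in DCM and at 133, 137 and 145 in SPM. CK and DCM overlapped, and all SPM libraries were below both. Lrp5 was lower in SPM compared to DCM (log2 fold change -0.37 ± 0.08 SE, edgeR adjusted p = 0.0161, 0.0844 without the second SPM library, 0.0509 without the first DCM library and 0.0645 without the second) and in SPM compared to CK (-0.33 ± 0.06 SE, edgeR adjusted p = 0.00666, and 0.048 without that library). With the GC correction the first became -0.26 (edgeR adjusted p = 0.0649) and the second -0.21 (adjusted p = 0.0316, and 0.155 without the second SPM library).

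Lrp6, the other co-receptor, stood at 61.5, 79.9 and 73.1 CPM in CK, at 57.9, 60.1 and 65.2 in DCM and at 68.6, 73.4 and 74.8 in SPM. All SPM libraries were above all DCM libraries, and CK overlapped both. Its log2 fold change was -0.23 ± 0.10 SE in DCM compared to CK (edgeR adjusted p = 0.162) and 0.24 ± 0.07 SE in SPM compared to DCM (edgeR adjusted p = 0.0434). The latter was 0.23 with an edgeR adjusted p of 0.187 without the second SPM library, and 0.11 with an adjusted p of 0.348 with the GC correction. The adjusted p was above 0.05 as well without the first (0.13) or second DCM library (0.122) and without the third SPM library (0.0978). With all libraries and no GC correction, the co-receptors therefore passed the adjusted p limit in opposite directions between DCM and SPM. With the GC correction neither passed it. The GC content of the transcripts is 54.7% for Lrp5 and 46.0% for Lrp6.

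Fzd8 stood at 19.9, 16.5 and 15.4 CPM in CK, at 20.7, 22.6 and 21.7 in DCM and at 13.8, 15.3 and 19.5 in SPM. The DCM libraries were above all others. The log2 fold change was 0.33 ± 0.11 SE in DCM compared to CK (edgeR adjusted p = 0.0784) and -0.42 ± 0.12 SE in SPM compared to DCM (edgeR adjusted p = 0.0407, and 0.158 without the second SPM library). The latter stayed below 0.05 in 1 of 6 cases with a library left out, that without the third SPM library. After the GC correction the values were 0.36 (edgeR adjusted p = 0.0265) and -0.38 (adjusted p = 0.101). Fzd1 was lower in SPM compared to CK (-0.33 ± 0.10 SE, edgeR adjusted p = 0.0439, and 0.124 without that library), from 19.0, 21.3 and 24.9 to 17.0, 17.7 and 17.2 CPM, and stayed below 0.05 without the first CK library alone. Its value was -0.21 with the GC correction (edgeR adjusted p = 0.229). The 12 receptors summed to 64.8 ± 1.37 FPKM in CK, 65.1 ± 0.699 in DCM and 62.9 ± 2.09 in SPM (SD, n = 3), sums that overlapped between all groups.

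**Figure D3:**
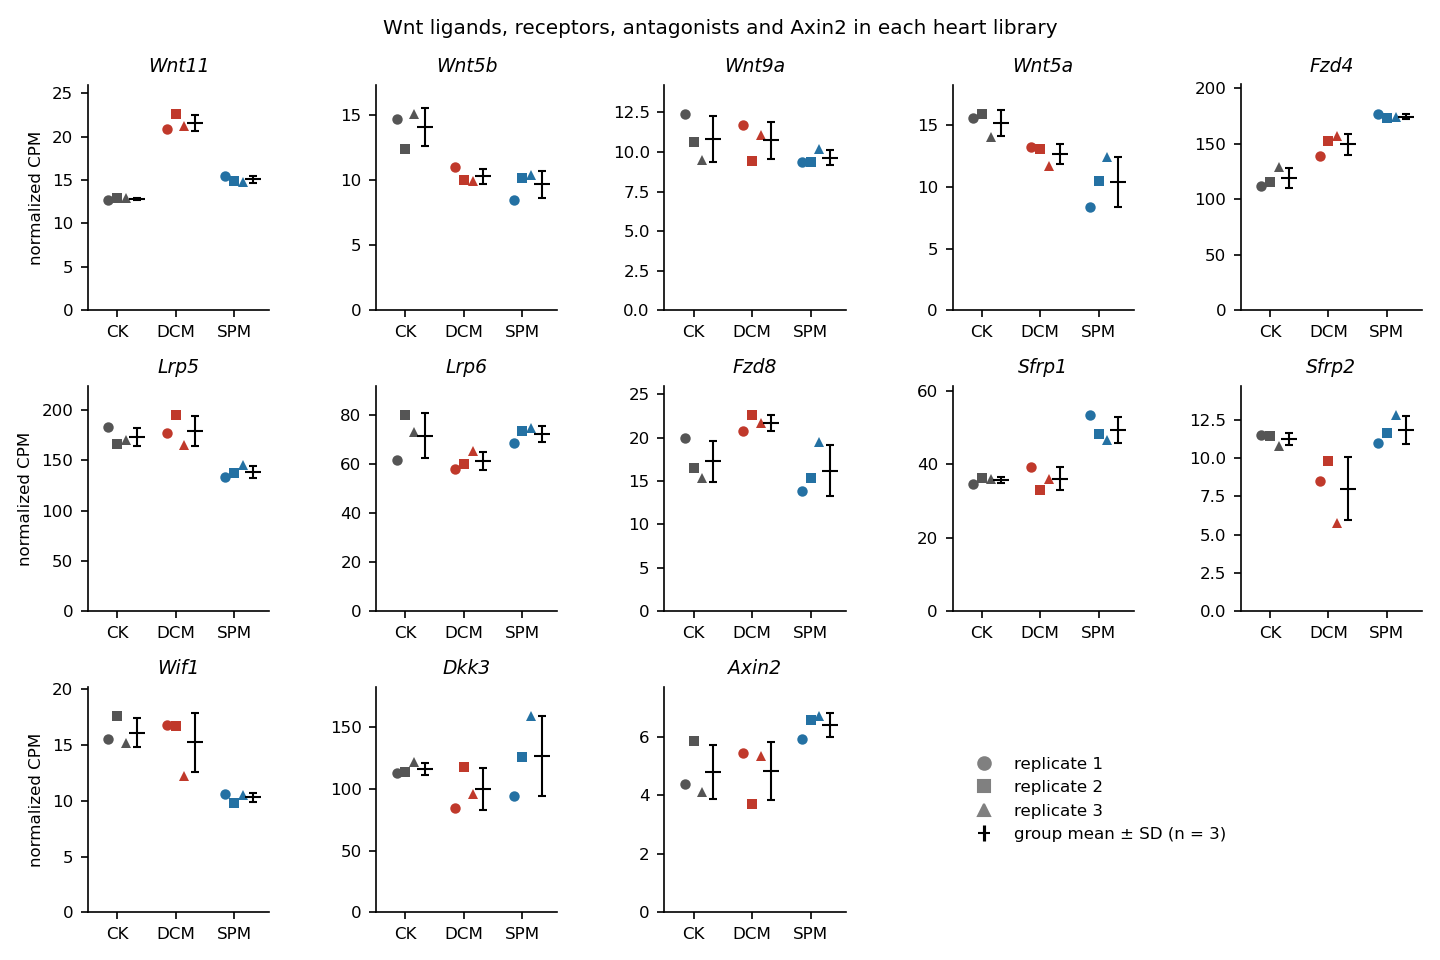
Normalised CPM in each library for 13 of the genes, with a mark for each replicate and, at the right of each group, its mean ± SD (n = 3); each panel has its own axis from 0. Wnt11 separates all 3 groups at means of 12.8, 21.6 and 15.1 CPM, Fzd4 is ordered CK, DCM, SPM, and Wif1 is low in the SPM libraries alone.

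Spermine was compared with diabetes alone in SPM compared to DCM. Of 30 members tested, 0 were called, beside 3.59% of all 14493 genes. edgeR gave 13 at an unadjusted p of 0.05, and DESeq2 called 0. With the adjusted p alone 7 of the 30 (23.3%) passed, beside 16.6% of all genes: Sfrp1, Sfrp2 and Lrp6 were higher, as 8.87% of all genes were, and Wnt11, Wif1, Lrp5 and Fzd8 were lower, as 7.76% were. Without the second SPM library 0 passed by edgeR, 9 were at an unadjusted p of 0.05, and the share of all genes called was 0.378%, with 0.486% past the adjusted p limit. Groups of 15 of the 30 members (50.0%) did not overlap, beside 39.2% of all genes. The median log2 fold change was -0.11, 12 being higher and 18 lower, against 0.00571 over all genes, of which 50.7% were higher. With the GC correction it was -0.04, and 0 members were called by edgeR, beside 0.925% of all genes. The 7 past the adjusted p limit became 3 of 30 (10.0%) under it, Sfrp1, Wnt11 and Wif1, beside 3.07% of all genes, and 10 were at an unadjusted p of 0.05. Without the second SPM library as well, the edgeR adjusted p of these 3 was 0.14, 0.212 and 0.209, in the same order. The paper, using DESeq2 with the same fold limit, lists Wnt11 and Sfrp2 among genes altered in DCM and reversed by SPM. Here DESeq2 gave -0.52 for Wnt11 (adjusted p = 1.60e-04) and 0.55 for Sfrp2 (adjusted p = 0.0249) in SPM compared to DCM. Both are under the fold limit. For Sfrp2 in DCM compared to CK it gave -0.48 (DESeq2 adjusted p = 0.0792). The reason for this difference from the paper was not tested.

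**Figure D4:**
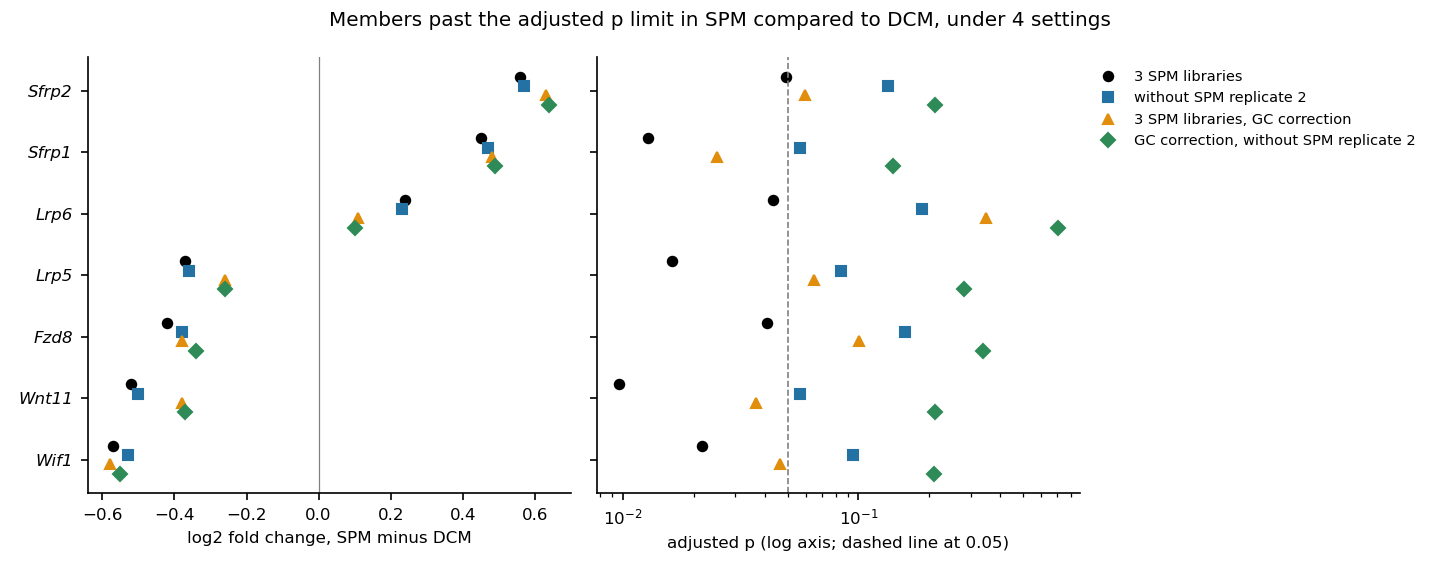
Log2 fold change (left) and edgeR adjusted p on a log axis (right) of the 7 genes past the adjusted p limit in SPM compared to DCM, under 4 settings. The fold changes keep their direction, while the adjusted p of each gene lies above 0.05 without the second SPM library, from 0.0566 for Wnt11 and Sfrp1 to 0.187 for Lrp6.

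The antagonist Sfrp1 stood at 34.7, 36.3 and 36.1 CPM in CK, at 39.3, 33.0 and 35.9 in DCM and at 53.4, 48.3 and 46.6 in SPM. CK and DCM overlapped and all SPM libraries were above them. It was 1.37-fold higher in SPM compared to DCM (log2 fold change 0.45 ± 0.08 SE, edgeR adjusted p = 0.0127, 0.0566 without the second SPM library and 0.0588 without the second DCM library). Against CK it was 1.38-fold higher in SPM (0.46 ± 0.07 SE, edgeR adjusted p = 0.00283, and 0.0176 without that library), and it passed the adjusted p limit with any 1 library left out.

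Sfrp2, which is made mainly by fibroblasts, stood at 11.5, 11.4 and 10.8 CPM in CK, at 8.47, 9.79 and 5.75 in DCM and at 11.0, 11.6 and 12.8 in SPM. The DCM libraries were below all others. The log2 fold change was -0.49 ± 0.17 SE in DCM compared to CK (edgeR adjusted p = 0.0935) and 0.56 ± 0.17 SE in SPM compared to DCM (edgeR adjusted p = 0.049, 0.133 without the second SPM library and 0.059 with the GC correction). It was called in the latter when the first SPM library was left out, and its adjusted p was above 0.05 in the 5 other cases.

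Wif1 (ENSMUSG00000020218), which binds Wnt ligands directly, lies on the plus strand at chr10:121033960-121100650 (GRCm38). It stood at 15.5, 17.6 and 15.2 CPM in CK, at 16.8, 16.7 and 12.2 in DCM and at 10.6, 9.81 and 10.5 in SPM. CK and DCM overlapped, and all SPM libraries were below them, at group means of 16.1 ± 1.31, 15.2 ± 2.67 and 10.3 ± 0.411 CPM (SD, n = 3). In DCM compared to CK its log2 fold change was -0.08 ± 0.13 SE (edgeR adjusted p = 0.776). Between DCM and SPM it was -0.57 ± 0.13 SE (edgeR adjusted p = 0.0216), a 1.48-fold difference under the fold limit, with an adjusted p of 0.095 without the second SPM library. There it was called when the third DCM, the first SPM or the third SPM library was left out, and lost the adjusted p limit without the first (0.0739) or the second DCM library (0.0879).

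With spermine and diabetes together compared with neither, in SPM compared to CK, 1 of 29 members tested was called, Wif1, beside 9.21% of all 14574 genes. Wif1 fell 1.57-fold (log2 fold change -0.65 ± 0.10 SE, edgeR adjusted p = 0.00246). It was called with any 1 of the 6 libraries left out, at -0.70 to -0.59, including -0.62 without the second SPM library (edgeR adjusted p = 0.0195), and with the GC correction. With the adjusted p alone 7 of the 29 (24.1%) passed, beside 27.3% of all genes: Fzd4 and Sfrp1 were higher, as 13.0% of all genes were, and Wif1, Wnt5a, Wnt5b, Lrp5 and Fzd1 were lower, as 14.3% were. With the GC correction Wif1 and Wnt5a were called, beside 7.26% of all genes, and 8 members (27.6%) passed the adjusted p limit, beside 21.2%. Fzd1 was lost there, while Wnt11 and Fzd7 (log2 fold change 0.34, edgeR adjusted p = 0.0232, against 0.0843 without the correction) were gained. For Fzd7 the edgeR adjusted p was 0.235 without the second SPM library, and 0.112 with the GC correction as well. Without the second SPM library 5 members (15.6%) passed, beside 10.4% of all genes, and 1 was called, beside 5.18%. Groups of 11 of the 29 (37.9%) did not overlap, beside 46.3% of all genes. The median log2 fold change was -0.14, with 12 higher and 17 lower, against 0.00215 over all genes, of which 50.2% were higher. Among genes that did not pass, the GC correction turned Fzd3 from 0.11 to -0.20, Fzd5 from -0.06 to 0.03, Wnt9b from -0.14 to 0.01 and Wnt16 from 0.08 to -0.16.

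SPM compared to DCM and SPM compared to CK share the SPM libraries, and DCM compared to CK shares a group with each of them, so their values are not independent. Side by side in the order DCM compared to CK, SPM compared to DCM, SPM compared to CK, the log2 fold changes of Wif1 were -0.08, -0.57 and -0.65, and those of Sfrp1 were 0.02, 0.45 and 0.46. Those of Fzd4 were 0.33, 0.22 and 0.55, and those of Wnt11 were 0.75, -0.52 and 0.23.

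**Figure D5:**
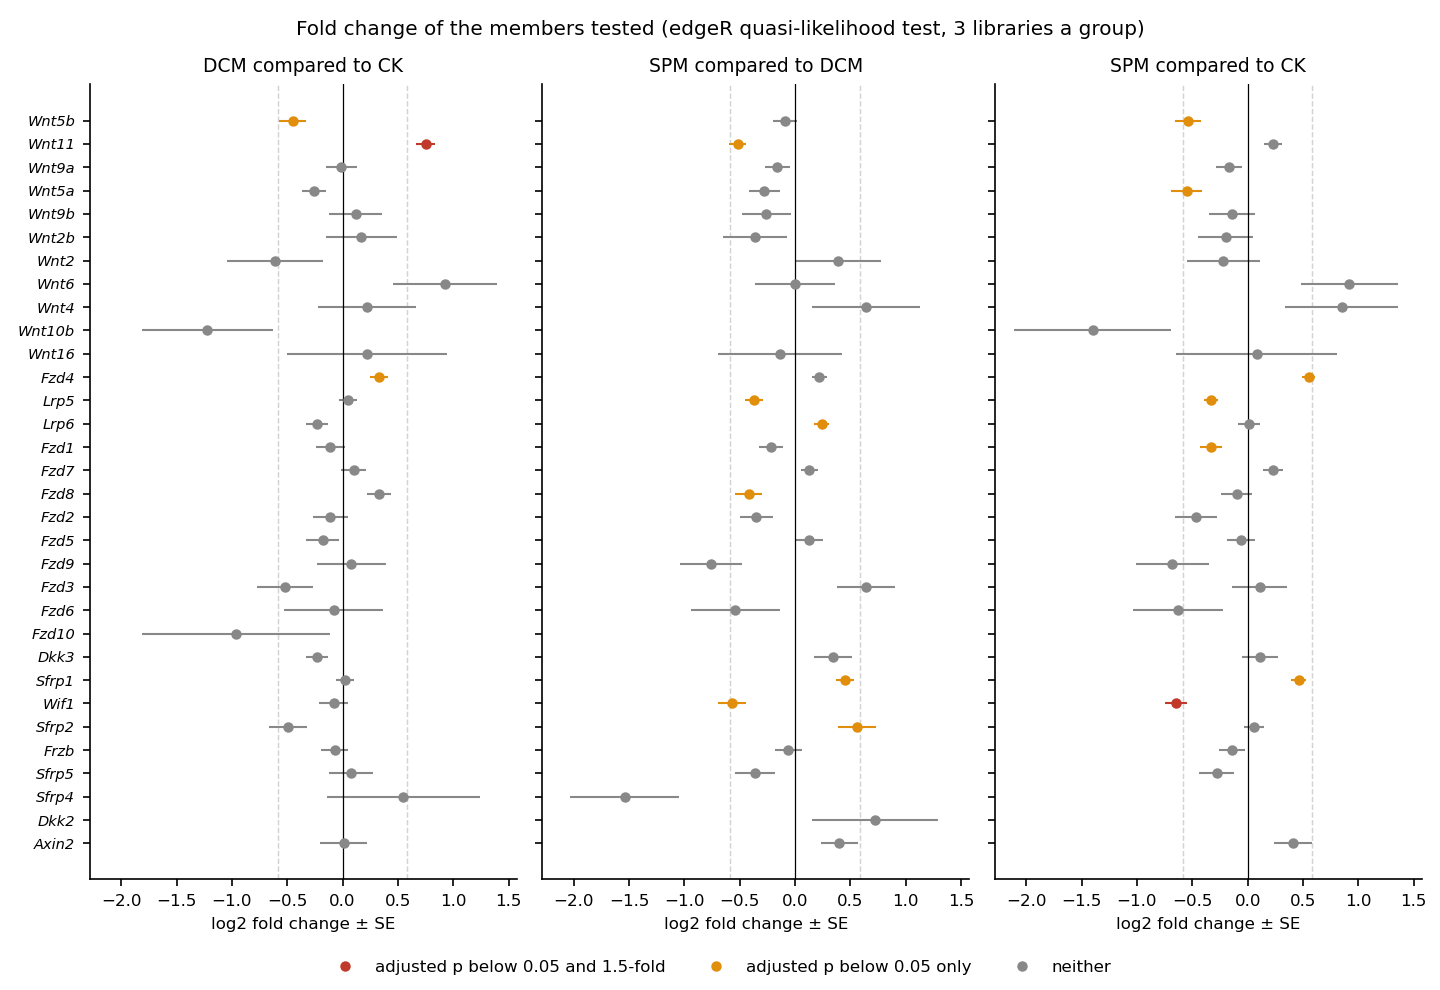
Log2 fold change ± SE of the genes tested in each comparison (3 libraries a group), by role and level, with dashed lines at 1.5-fold; red marks the called genes, orange those past the adjusted p limit only. Wnt11 is red at 0.75 in DCM compared to CK and Wif1 at -0.65 in SPM compared to CK, no gene is red in SPM compared to DCM, and the widest bars belong to genes with few counts such as Wnt10b and Sfrp4.

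Dkk3 stood at 113, 114 and 122 CPM in CK, at 84.8, 118 and 96.0 in DCM and at 94.5, 126 and 159 in SPM. The groups overlapped, with the lowest library in DCM and the highest in SPM, and no comparison passed the adjusted p limit (log2 fold changes of -0.23, 0.34 and 0.11, edgeR adjusted p of 0.201, 0.177 and 0.617, with 0.29 and 0.705 for the SPM comparisons without the second SPM library). With single libraries left out the first lay between 0.0294 and 0.557 and the second between 0.0236 and 0.506. Atrial markers summed to 1464, 1039 and 1367 FPKM in the CK libraries, 612, 995 and 1104 in DCM and 1083, 1462 and 1765 in SPM. The libraries had the same order as for Dkk3 in SPM, but not in CK or DCM. The part of these markers in the level of Dkk3 was not tested. Dkk3 held 54.3% to 55.4% of the antagonist sum in CK, as against 47.8% to 54.8% in DCM and 49.7% to 62.3% in SPM. That sum was 66.1 ± 1.44 FPKM in CK, 55.3 ± 6.00 in DCM and 64.5 ± 9.49 in SPM (SD, n = 3).

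Of the other antagonists, Frzb had log2 fold changes of -0.07, -0.06 and -0.14 with standard errors of 0.12, and Sfrp5 of 0.08, -0.36 and -0.28 with standard errors of 0.16 to 0.20, none past the adjusted p limit by edgeR. The SPM values were -0.16 and -0.24 for Frzb and -0.37 and -0.29 for Sfrp5 without the second SPM library. Sfrp4 had 113 counts in all 9 libraries. Its log2 fold change in SPM compared to DCM was -1.54 ± 0.49 SE (edgeR adjusted p = 0.0541, and 0.186 without the second SPM library), from 0.427, 0.813 and 0.469 to 0.185, 0.225 and 0.163 CPM.

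Axin2, read as a target of beta-catenin, stood at 4.40, 5.86 and 4.12 CPM in CK, at 5.45, 3.69 and 5.33 in DCM and at 5.94, 6.56 and 6.71 in SPM. CK and DCM overlapped and the SPM libraries were above both. The log2 fold change was 0.01 ± 0.21 SE in DCM compared to CK (edgeR adjusted p = 0.983), 0.40 ± 0.17 SE in SPM compared to DCM (adjusted p = 0.122, and 0.316 without the second SPM library) and 0.41 ± 0.17 SE in SPM compared to CK (adjusted p = 0.101, and 0.265 without that library), so that no comparison passed the limit.

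Other genes of the pathway were read in 6 lists, with 8 genes on 2 of them and counted once in sums over the lists. In DCM compared to CK none of the genes on them was called by edgeR, and 6 of 73 (8.22%) passed the adjusted p limit, beside 10.4% of all genes. Of 22 genes of the Dishevelled proteins and the beta-catenin destruction complex 1 was higher and 0 were lower past the adjusted p limit, and of 15 TCF/LEF factors and nuclear partners 2 were higher and 1 lower. Of 11 beta-catenin target genes tested 0 passed, with a median log2 fold change of -0.18. The medians of the 6 lists ran from that value to 0.05. Of 13 planar cell polarity and NFAT genes 1 was lower, of 10 extracellular regulators 1 was lower, and of 6 R-spondin and alternative Wnt receptors 0 passed.

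Of the 6 lists 1 gene was called in SPM compared to DCM, Dact1, which binds Dishevelled. It was lower by a log2 fold change of -0.61 ± 0.17 SE (edgeR adjusted p = 0.0376), from 6.53, 5.42 and 4.81 to 3.33, 3.70 and 3.97 CPM, and its adjusted p was 0.144 without the second SPM library and 0.0884 with the GC correction, so the call was lost under both. Past the adjusted p limit there were 15 of 73 genes (20.5%), beside 16.6% of all genes. They comprised 2 higher and 3 lower of 22 in the Dishevelled and destruction complex list, 0 and 2 of 15 nuclear partners, 1 and 4 of 13 polarity genes, 1 and 0 of 12 target genes, 1 and 0 of 9 extracellular regulators and 1 and 0 of 7 R-spondin and alternative receptors. The medians of the lists ran from -0.07 to 0.21. Without the second SPM library 1 gene of all lists (1.35%) still passed, beside 0.486% of all genes, the coactivator Bcl9l (log2 fold change -0.54, edgeR adjusted p = 0.043). Under the GC correction 2 of 73 (2.74%) passed, beside 3.07% of all genes, Bcl9l among them (-0.33, edgeR adjusted p = 0.034).

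In SPM compared to CK, 3 genes of the lists were called, all lower, beside 9.21% of all genes. Ctnnbip1, an inhibitor that keeps beta-catenin from TCF factors, fell from 44.0, 42.2 and 36.2 to 24.1, 25.5 and 25.6 CPM (log2 fold change -0.71 ± 0.08 SE, edgeR adjusted p = 0.00126, and 0.00933 without the second SPM library). In DCM it was already lower than in CK, at 28.7, 30.3 and 31.7 CPM (-0.43 ± 0.09 SE, edgeR adjusted p = 0.00962). In SPM compared to DCM it was -0.27 ± 0.07 SE (edgeR adjusted p = 0.0351, 0.245 with the GC correction and 0.147 without the second SPM library). The polarity gene Scrib fell from 55.0, 50.5 and 54.6 to 32.9, 35.4 and 38.6 CPM (-0.59 ± 0.08 SE, edgeR adjusted p = 0.00156, and 0.0132 without that library). Celsr2, a polarity cadherin, fell from 13.5, 12.8 and 14.9 to 7.33, 8.40 and 10.3 CPM (-0.66 ± 0.13 SE, edgeR adjusted p = 0.00865, and 0.0454 without that library). The CK and SPM libraries of these 3 genes did not overlap. In DCM, Scrib stood at 48.4, 55.0 and 45.2 CPM and Celsr2 at 11.3, 12.8 and 12.9. Scrib was under the fold limit at -0.58 without the second SPM library. After the GC correction Scrib (-0.39) and Celsr2 (-0.50) were both under it and Ctnnbip1 was still called (-0.59). Of all list genes 27 of 74 (36.5%) passed the adjusted p limit, beside 27.3% of all genes, against 7 (9.46%, beside 10.4%) without the second SPM library and 20 (27.0%, beside 21.2%) with the GC correction. With all libraries there were 5 higher and 5 lower of 22 in the Dishevelled and destruction complex list, 2 and 5 of 15 nuclear partners, 1 and 3 of 13 polarity genes, 1 and 1 of 12 target genes, 2 and 0 of 10 extracellular regulators and 2 and 0 of 7 R-spondin and alternative receptors, with list medians of -0.12 to 0.29. When the second SPM library was left out these became 1 and 1, 0 and 1, 0 and 3, 0 and 0, 0 and 0, and 1 and 0, in the same order.

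Markers of other cells differed between the groups as well. Macrophage markers summed to 524 to 721 FPKM in CK, against 391 to 496 in DCM and 477 to 853 in SPM, with 6 of 9 called and higher in SPM compared to DCM, 0 without the second SPM library and 3 with the GC correction. Liver genes summed to 10.7 to 35.2 FPKM in CK, against 18.9 to 22.5 in DCM and 21.2 to 212 in SPM. Smooth muscle and pericyte markers lay between 256 and 395 FPKM, those of epicardium between 12.4 and 37.4, of adipocytes between 14.7 and 139 and of Schwann cells between 4.13 and 5.66 over the 9 libraries. Their part in the values of the Wnt genes was not tested.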

How the data were processed

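Heart RNA was sequenced after oligo(dT) enrichment and rRNA removal. The authors deposited counts, whole numbers per gene and library, from reads filtered with fastp, and FPKM values per library. Dividing a deposited count by the library total and by a fixed length for the gene gives the deposited FPKM. The submitters' processing notes name Bowtie 0.12.2 and the builds mm8 and mm9. The counting tool and annotation were not given in the sources used here. Gene symbols, positions and GC content came from GENCODE M21 on GRCm38, in which 22844 of 22851 identifiers were found.

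Each pair of groups was fitted with its 6 libraries by edgeR 4.0.16 (filterByExpr, TMM, quasi-likelihood test) in R 4.3.3, with adjustment over all genes. The SE is the log2 fold change divided by the square root of F. This fit was also tested on simulated data. Alternatives were DESeq2 1.42.0, limma 3.58.1 on log2(FPKM + 0.1), RLE, other filters and fold limits, a joint fit of all 9 libraries, the replicate number as a block, a GC correction (lowess span 0.3) and each library left out. The GC correction without the second SPM library was added after the data were seen.

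The genes and lists were chosen with earlier results of these data known. Values in every library were given for genes called in any comparison and for the 3 highest by FPKM of each role; Wnt5a, Wnt7b, Sfrp2, Sfrp4, Fzd1, Fzd8, Tspan12 and Bcl9l were added after their values were seen. List genes were named where called. Python 3.11.15 with pandas 2.3.3, numpy 2.4.6 and matplotlib 3.10.9 made the tables and plots.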

Additional observations from a re-analysis of the deposited data

How the results depend on the processing

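The limits lie in the small groups, the second SPM library and the GC trend of the SPM libraries. Replicate numbers did not pair the libraries: residuals of libraries with the same number correlated at -0.152 to 0.168 and those of other numbers at -0.187 to 0.158. With the replicate block 1, 0 and 1 members were called in DCM compared to CK, SPM compared to DCM and SPM compared to CK, as without it. In the same order a fold limit of 1.3 called 2, 5 and 5 members and no fold limit 3, 7 and 7. In SPM compared to CK, DESeq2 called 2 (Wif1 and Wnt7b), the GC correction 2 (Wif1 and Wnt5a) and limma on FPKM 3 (Wif1, Wnt5a and Wnt5b). With single libraries left out, 1 was called in every case in DCM compared to CK, 0 to 2 in SPM compared to DCM, and 1 to 4 in SPM compared to CK. The 2 came without SPM replicate 1 and 1 each without DCM replicate 3 or SPM replicate 3. The 4 came without CK replicate 3, 3 without SPM replicate 3 and 2 without CK replicate 1 or 2. RLE, the other count filters and the fit of all 9 libraries left these counts as they were. Low counts limited Wnt3, Dkk1, Wnt1 and Wnt7b.

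No called value changed direction. Of values not past a limit, limma gave -0.08 for Axin2, -0.04 for Lrp5 and -0.08 for Sfrp1 in DCM compared to CK. There the median over all genes was -0.0878 by limma, on FPKM without TMM adjustment, against -0.00248 by edgeR. In SPM compared to CK limma gave -0.01 for Dkk3, -0.08 for Lrp6 and -0.03 for Sfrp2. The GC correction gave 0.00 for Wnt9a in DCM compared to CK, 0.10 for Wnt5b in SPM compared to DCM and -0.08 for Lrp6 in SPM compared to CK, and without the second SPM library as well 0.06 for Wnt5b in SPM compared to DCM, and 0.02 for Fzd8 and -0.10 for Lrp6 in SPM compared to CK. With single libraries left out, values in DCM compared to CK ran from -0.09 to 0.18 for Axin2, -0.21 to 0.00 for Fzd1, -0.02 to 0.11 for Lrp5, -0.05 to 0.07 for Sfrp1, -0.15 to 0.06 for Wif1 and -0.09 to 0.10 for Wnt9a. In SPM compared to CK they ran from -0.09 to 0.29 for Dkk3, -0.26 to 0.01 for Fzd8, -0.09 to 0.10 for Lrp6 and -0.00 to 0.11 for Sfrp2. The causes were not tested.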
